A study of Homo sapiens with 2 samples.

Results

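Cell junction genes encode the proteins that hold epithelial cells together and seal the space between them. The list of 47 gene symbols examined here covers cadherins and catenins of the adherens junction, claudins and other tight junction proteins, desmosome proteins and connexins, and its members were chosen by symbol in the deposited count table, which holds 18944 genes. Of the 47 symbols, 43 matched a row, and AFDN, NECTIN1, NECTIN2 and NECTIN3 were not analysed here. RNA sequencing had been done on H1993, an established human lung cancer line that the series title describes as MET-amplified, and on a derivative of it selected for growth in the compound PHA665752, which blocks the MET receptor kinase. The parental library carries the treatment label DMSO and the resistant library the label PHA665752. Selection ran from 1 nM to 1 µM, the derivative was kept in 1 µM drug, and it was grown without drug for 1 week before the experiments. Whether RNA was taken with drug present is not given in the labels, nor is whether the derivative is a single clone. There was 1 library per group, so no difference below has a replicate check or a p-value, and every statement describes these 2 libraries.

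Adherens junctions join cells through the outer parts of classical cadherins, whose inner parts bind catenins that connect to actin. Tight junctions seal the gap between cells by strands of claudins and occludin, which are held by ZO scaffold proteins. Desmosomes join cells through desmogleins and desmocollins, linked by plakoglobin, plakophilins and desmoplakin to keratin filaments. Gap junctions are channels built from connexins. In carcinomas, low E-cadherin together with N-cadherin is widely used as a sign of an epithelial-mesenchymal transition.

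Total counts were 16723181 for parental cells and 17086748 for resistant cells. Levels are CPM, counts scaled to the same library size by TMM normalization, and values in a pair give the parental library first. Ratios divide the resistant by the parental level and are given as folds or on a log2 scale, after adding 0.5 counts to either side. Genes reaching 1 CPM in either library are called tested below. A call of higher or lower needs a difference of 2-fold or more and an exact 95% interval that leaves out no change. All intervals cover counting error only. The keratin genes of carcinoma epithelium KRT7, KRT8, KRT18 and KRT19 stood between 504 and 3394 CPM in both libraries. The lung markers NAPSA, SFTPB and SFTPC had 0 to 2 counts in either library, FOXA2 had 19 and 0, and NKX2-1 was at 4.16 and 5.95 CPM.

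Junction genes were more often lower than higher in the resistant library. Of 37 tested members, 12 were called lower and 5 higher, and 20 passed neither way. Over all 12245 tested genes, 20.4% were called, 8.29% lower and 12.1% higher. The members' share lower (32.4%) thus lay above the background and their share higher (13.5%) near it. This list and those used below were chosen with earlier results of these data known, so such comparisons are descriptions only. The median log2 ratio was -0.60 for the tested members and 0.00 for all tested genes, and 27 of the 37 ratios were below 0. The members together gave 0.662% of all parental counts (exact 95% interval 0.659 to 0.666%) and 0.4495% of all resistant counts (0.446 to 0.453%). In bulk RNA, fewer cells expressing a gene and less RNA per cell cannot be told apart.

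CDH5, GJA1 and CLDN2 reached 1 CPM in 1 library alone, so the filter fixed the direction of their differences. Among the 34 members at 1 CPM or more in both libraries, 11 were lower and 3 higher, beside 6.61% and 7.7% of all genes that met the same condition. CDH6, CDH11, CDH17, CLDN18, DSG3 and PKP1 had 0 to 3 counts in each library and were not tested.

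**Figure D1:**
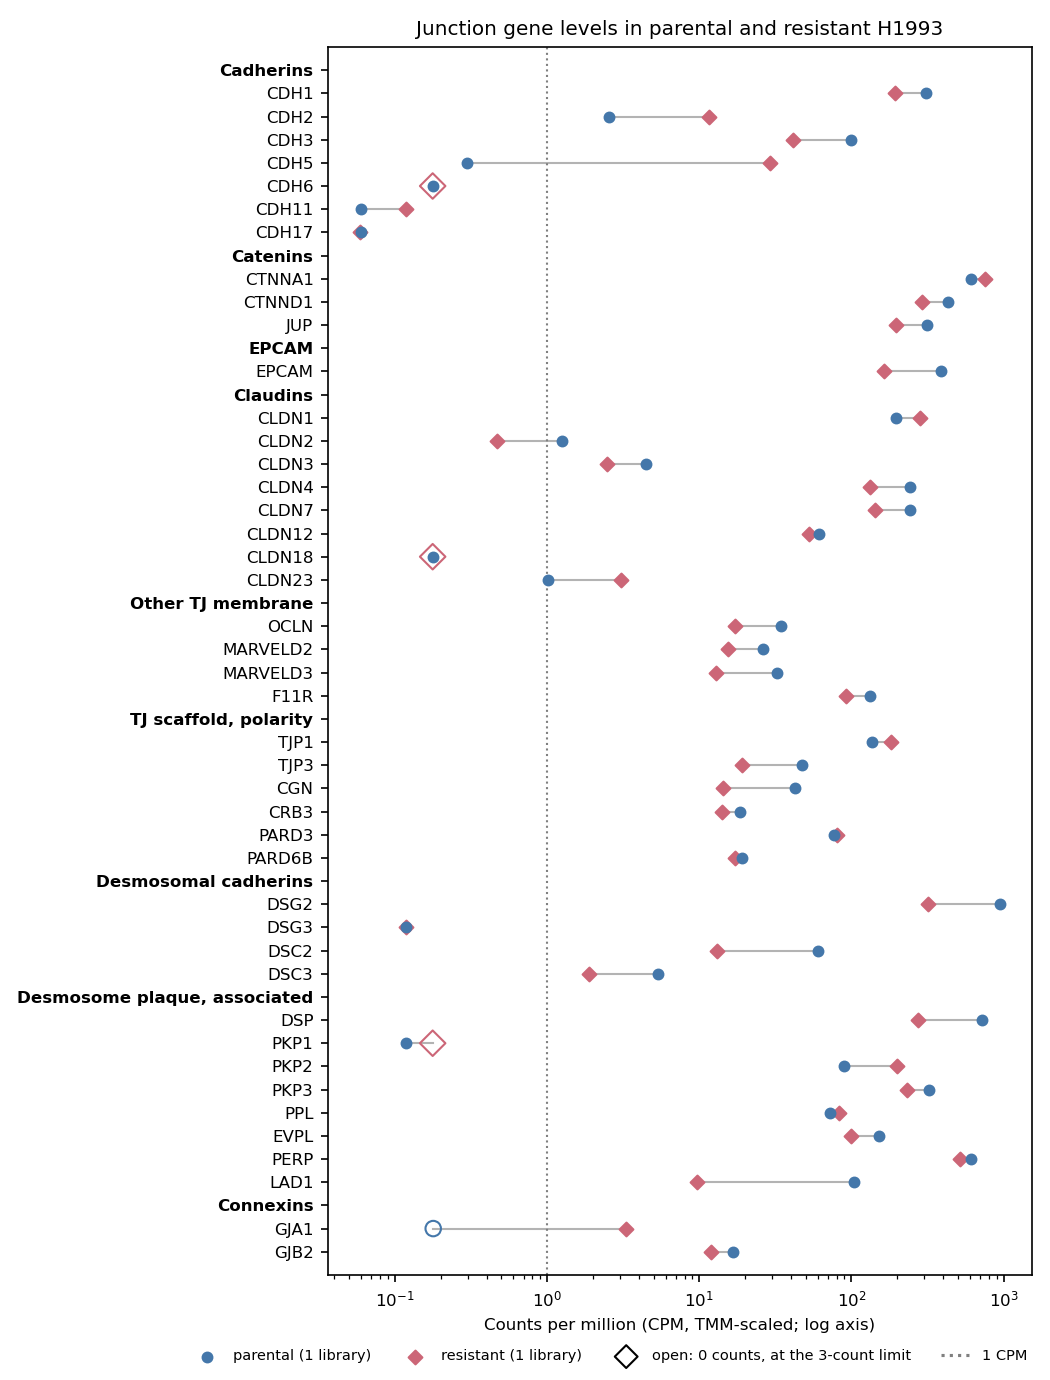
Level of the 43 junction genes found in the table, in CPM on a log axis, grouped by role in the junction (TJ, tight junction). Circles are the parental and diamonds the resistant library, with 1 library each, and open symbols mark 0 counts drawn at the limit that 3 counts would give. Most diamonds lie to the left of their circles, and CDH2, CDH5, CLDN23, PKP2 and GJA1 lie clearly to the right.

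Of 8 tested adherens junction genes, 2 were higher and 2 lower (25% each, beside 12.1% and 8.29% of all tested genes). The 4 tested cadherins of the list differed in direction. CDH7 and CDH19, cadherins outside the list that are given below, were lower. CDH1, which encodes E-cadherin of epithelial adherens junctions, stood at 309 CPM in parental cells and 192 CPM in resistant cells. It was 1.61-fold lower (95% counting interval 1.54 to 1.68) and was not called. CDH3, the gene of P-cadherin, was at 98.7 and 41.4 CPM and was called lower, 2.38-fold (2.18 to 2.61). CDH2, which encodes N-cadherin of mesenchymal and neural cells, was at 2.55 and 11.6 CPM. It was called higher, 4.50-fold (3.25 to 6.48).

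CDH5 encodes VE-cadherin, the cadherin of endothelial adherens junctions. It had 5 counts in the parental library and 495 in the resistant one, which is 0.297 and 29.2 CPM. The ratio was 89.3-fold (41.8 to 304). Of the 6 endothelial marker genes examined, the other 5 (PECAM1, VWF, KDR, TIE1 and EMCN) had 0 or 1 counts in each library. CDH5 was thus the 1 endothelial marker of that list above this level.

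Levels of different genes can be compared per transcript length. The deposited log2 values come with no method given, and they were found to behave as the log2 of 1 plus CPM per kilobase. The check is described in the section on processing below. Undoing this log2 step gives a per-length level. CDH1 had the highest level of these cadherins in the resistant library by this measure, with 40.1 CPM per kilobase, against 9.79 for CDH3, 7.16 for CDH5 and 2.86 for CDH2. Parental levels in the same order were 64.5, 23.4, 0.0725 and 0.628. Of the summed level of these 4 genes, CDH1 took 72.8% in parental and 66.9% in resistant cells. The share of CDH2 and CDH5 went from 0.709% and 0.0819% to 4.78% and 11.9%, and that of CDH3 from 26.4% to 16.3%.

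None of the 3 catenin genes of the list was called. CTNNA1, the gene of α-catenin that connects the cadherin complex to actin, was at 614 and 754 CPM, with a log2 ratio of 0.30 (0.26 to 0.33). CTNND1, the gene of p120-catenin that keeps cadherins at the surface, was at 431 and 289 CPM, 1.49-fold lower (1.44 to 1.55). JUP, the gene of plakoglobin, which serves adherens junctions and desmosomes, was at 313 and 197 CPM, 1.59-fold lower (1.52 to 1.66). JUP and CTNND1 thus lay close to CDH1 in ratio, and CTNNA1 lay on the other side of 0. CTNNB1, the gene of β-catenin and a partner outside the list, was at 428 and 465 CPM.

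EPCAM, an epithelial adhesion protein that binds claudins, had the highest per-length level of all members in the parental library and ranked 3 in the resistant one. It was at 389 and 164 CPM, 2.38-fold lower (2.27 to 2.49).

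**Figure D2:**
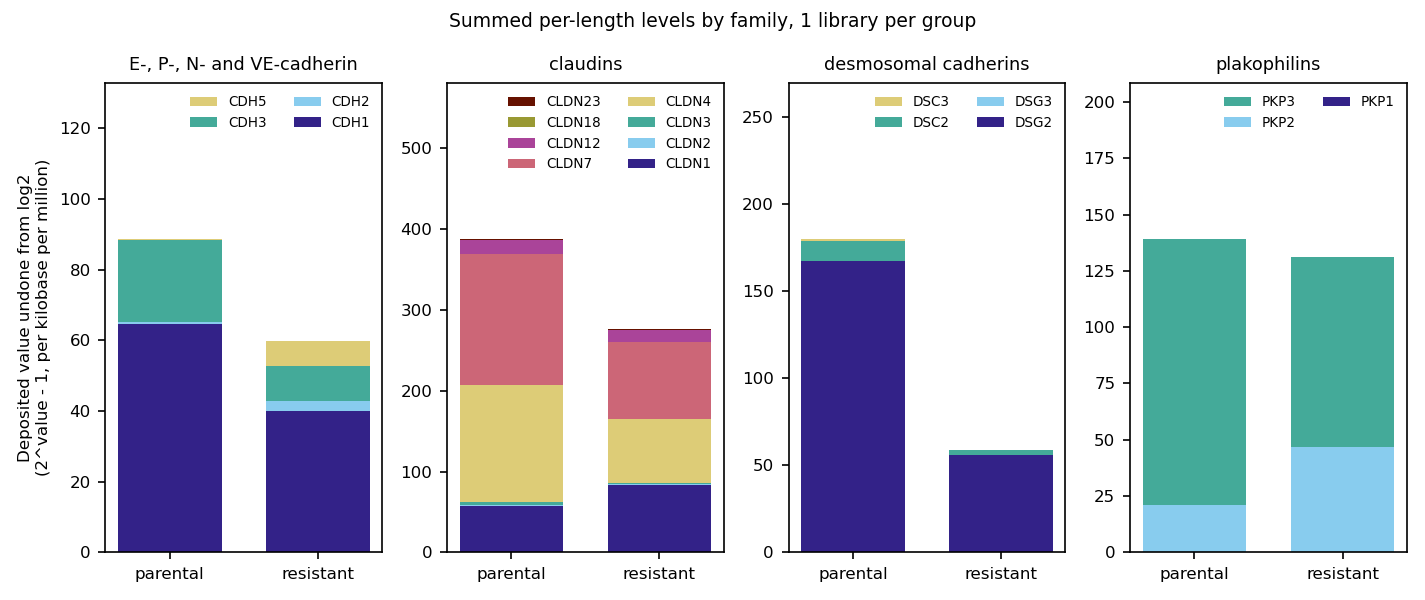
Per-length level (deposited log2 value undone, CPM per kilobase) of each gene, stacked by family, with 1 bar per library. The desmosomal cadherin bar is 179.6 high for parental and 58.9 for resistant cells, and the plakophilin bars are 138.9 and 131.3.

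Of 17 tested tight junction genes, 5 were lower (29.4%, beside 8.29% of all tested genes) and 1 higher (5.88%, beside 12.1%). Their median log2 ratio was -0.76. Claudins, which form the seal, shifted in makeup. CLDN4 was at 244 and 133 CPM, 1.83-fold lower (1.74 to 1.93). CLDN7 was at 242 and 143 CPM, 1.70-fold lower (1.61 to 1.78). CLDN1 was at 195 and 283 CPM, with a log2 ratio of 0.53 (0.47 to 0.60). None of these 3 abundant claudins passed 2-fold, and their intervals did not overlap between CLDN1 on one side and CLDN4 and CLDN7 on the other. Per length, CLDN1 took 14.97% of the summed claudin level in parental cells and 30.3% in resistant cells, while CLDN4 took 37.4% and 28.6% and CLDN7 41.9% and 34.2%. The summed claudin level was 387 and 276 CPM per kilobase.

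The claudins called were scarce ones. CLDN23 was called higher at 17 and 52 counts (2.98-fold, 1.73 to 5.60), and CLDN2, the gene of a cation pore claudin, was called lower at 21 and 8 counts (2.55-fold, 1.13 to 6.91). Neither passed with the deposited log2 values, where they differed by 0.79 and -0.30, since adding 1 compresses low levels. CLDN3 had 75 and 42 counts, and CLDN12 was at 61.5 and 52.3 CPM.

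All 4 other tight junction membrane genes had ratios below 0. MARVELD3 encodes a relative of occludin that sits in the same strands. It was at 32.3 and 12.9 CPM, 2.50-fold lower (2.13 to 2.94). OCLN, the occludin gene, was at 34.3 and 17.1 CPM. It was 2.001-fold lower (1.74 to 2.31), on the threshold, and it did not pass with DESeq2 size factors, with 2 added to each count or with the deposited log2 values (log2 ratios of -0.989, -0.997 and -0.791). MARVELD2, the gene of tricellulin at the corners where cells meet, was at 26.1 and 15.4 CPM, and F11R, the gene of the adhesion protein JAM-A, was at 133 and 92.7 CPM. Neither passed. OCLN has an unprocessed pseudogene on the same chromosome, OCLNP1 on chromosome 5, so its reads may be split.

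Scaffold genes of the tight junction differed among themselves. TJP1, the gene of ZO-1 that binds claudins and actin, was at 136 and 183 CPM, 1.35-fold higher (1.27 to 1.42). TJP3, the gene of its relative ZO-3, was at 47.4 and 19.0 CPM, 2.50-fold lower (2.19 to 2.85). Per length the 2 genes were close in the parental library, at 17.2 and 15.7, and apart in the resistant one, at 23.1 and 6.27. CGN encodes cingulin, which links ZO proteins to the cytoskeleton. It was at 42.6 and 14.4 CPM, 2.96-fold lower (2.56 to 3.44).

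The polarity genes differed little. CRB3, the gene of an apical membrane protein, was at 18.7 and 14.0 CPM with a log2 ratio of -0.41 (-0.66 to -0.16). For PARD3 (0.06, -0.05 to 0.17) and PARD6B (-0.14, -0.37 to 0.09), which encode parts of the PAR polarity complex, the counting interval included 0.

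Of 10 tested desmosome genes, 5 were lower (50%, beside 8.29% of all tested genes) and 1 higher (10%, beside 12.1%). Their median log2 ratio was -0.998, and their levels summed to 3090 CPM in parental cells and 1749 CPM in resistant cells. The group includes LAD1 of the basement membrane zone, which had the lowest ratio of all tested members (-3.43). It leaves out JUP (-0.67, not called), which was counted with the catenins. Both the count and the median depend on this grouping. DSG2 encodes desmoglein-2, the desmoglein of simple epithelia. It was at 947 and 318 CPM, 2.98-fold lower (2.89 to 3.08). DSC2, the gene of its partner desmocollin-2, was at 60.1 and 13.1 CPM, 4.56-fold lower (3.95 to 5.31). DSC3, a desmocollin of stratified epithelia, was at 5.35 and 1.89 CPM, 2.81-fold lower (1.88 to 4.39), and differed by -0.44 with the deposited log2 values. All 3 desmosomal cadherins that could be tested were thus lower.

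The plaque genes, which join these cadherins to keratin, differed in direction. DSP, the gene of desmoplakin that grips keratin filaments, was at 723 and 275 CPM, 2.63-fold lower (2.54 to 2.72). PKP2, the gene of plakophilin-2, was at 89.8 and 199 CPM, 2.22-fold higher (2.09 to 2.36). PKP3, the gene of plakophilin-3, was at 323 and 231 CPM, with a log2 ratio of -0.48 (-0.54 to -0.42). Per length, PKP2 took 15.2% of the summed plakophilin level in the parental library and 35.6% in the resistant one, and the sum itself was 139 and 131. PKP2 was the 1 desmosome gene called higher, and its interval lay apart from those of DSG2, DSC2 and DSP.

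The plakin genes PPL and EVPL encode periplakin and envoplakin, which link desmosomes to the cell cortex. PPL was at 72.1 and 83.2 CPM, with a log2 ratio of 0.21 (0.09 to 0.32). EVPL was at 151 and 99.9 CPM, with a ratio of -0.60 (-0.69 to -0.51). PERP, a desmosome membrane gene that p53 can induce, was at 613 and 518 CPM. LAD1, the gene of ladinin-1 of the basement membrane zone, differed most of all tested members on the lower side. It was at 105 and 9.72 CPM, 10.7-fold lower (9.18 to 12.7).

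**Figure D3:**
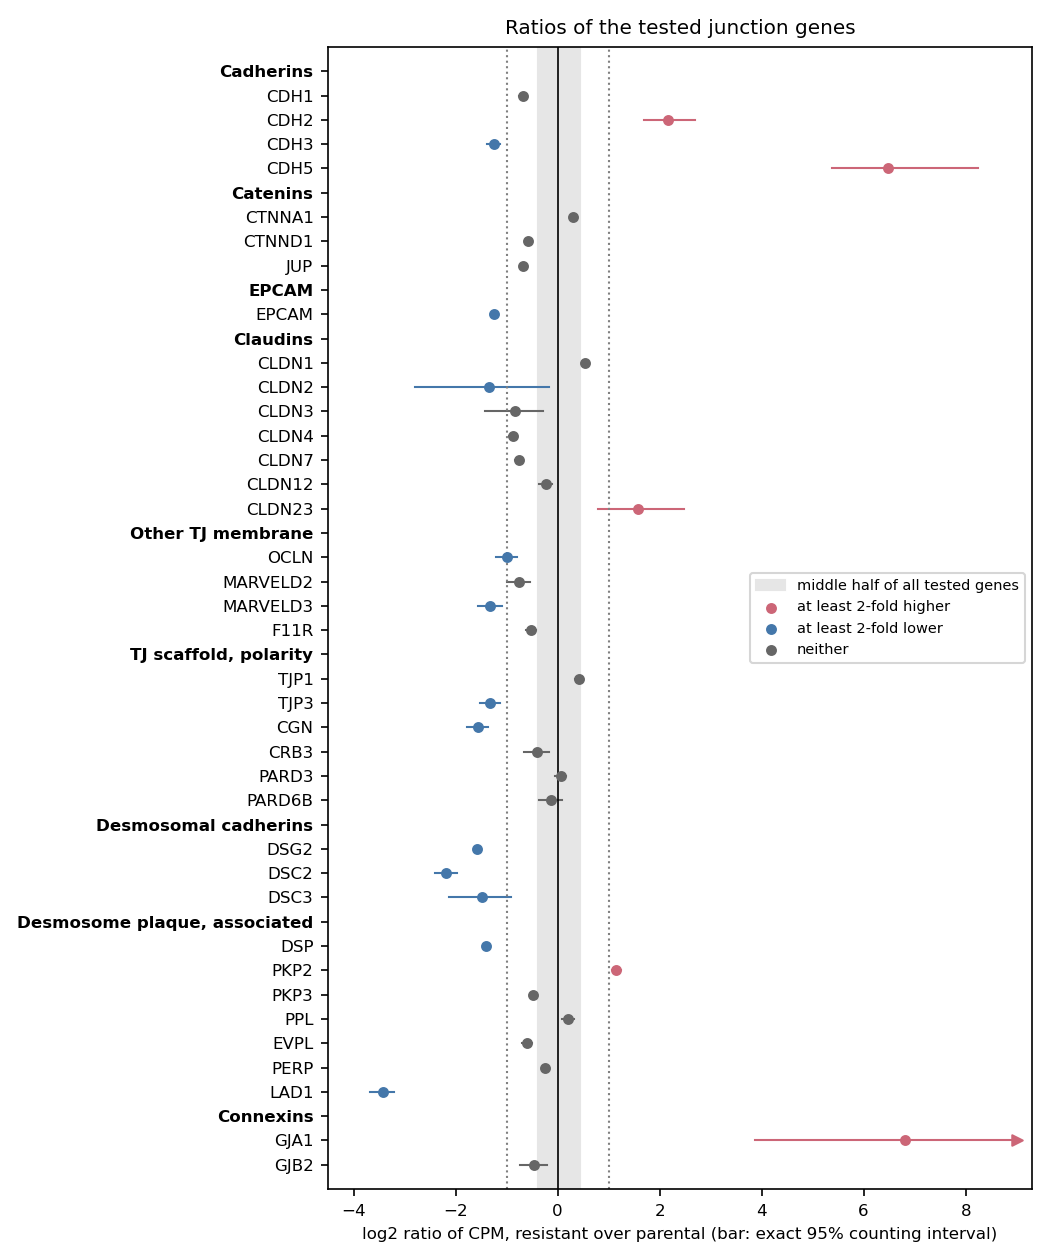
Log2 ratio of resistant over parental for the 37 tested junction genes, with exact 95% counting intervals and dotted lines at 2-fold. The grey band runs from the lower to the upper quartile of all tested genes (-0.39 to 0.43), and DSG2, DSC2, DSC3, DSP and LAD1 lie left of the lower dotted line while PKP2 lies right of the upper one.

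Promoters of the 5 members of the desmosome group that were called lower, LAD1 included, are shown because these genes were lower together. The motif searched was CAGGTG or, on the other strand, CACCTG, the E-box form that repressors of the ZEB and SNAI families are known to bind, and it was picked with the values known. Each sequence is from RefSeq on GRCh38.p14, runs 5′ to 3′ over the 250 bases before the annotated start, and has any motif in capitals.
DSG2, chr18:31497927-31498176, plus strand: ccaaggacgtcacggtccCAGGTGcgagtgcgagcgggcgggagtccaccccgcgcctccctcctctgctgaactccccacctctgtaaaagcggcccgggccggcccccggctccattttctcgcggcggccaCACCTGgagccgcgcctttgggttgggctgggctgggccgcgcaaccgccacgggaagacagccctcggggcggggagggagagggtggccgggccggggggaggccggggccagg
DSC2, chr18:31102422-31102671, minus strand: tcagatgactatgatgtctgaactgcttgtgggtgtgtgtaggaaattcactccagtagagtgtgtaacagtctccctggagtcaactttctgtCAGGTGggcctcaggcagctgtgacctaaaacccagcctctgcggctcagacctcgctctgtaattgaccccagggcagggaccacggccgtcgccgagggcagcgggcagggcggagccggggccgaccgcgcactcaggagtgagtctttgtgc
DSC3, chr18:31042743-31042992, minus strand: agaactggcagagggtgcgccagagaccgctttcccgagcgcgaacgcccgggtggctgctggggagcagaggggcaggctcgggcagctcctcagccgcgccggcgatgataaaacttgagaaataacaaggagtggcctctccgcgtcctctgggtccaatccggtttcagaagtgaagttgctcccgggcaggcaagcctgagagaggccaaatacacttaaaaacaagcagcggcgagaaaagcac
DSP, chr6:7541421-7541670, plus strand: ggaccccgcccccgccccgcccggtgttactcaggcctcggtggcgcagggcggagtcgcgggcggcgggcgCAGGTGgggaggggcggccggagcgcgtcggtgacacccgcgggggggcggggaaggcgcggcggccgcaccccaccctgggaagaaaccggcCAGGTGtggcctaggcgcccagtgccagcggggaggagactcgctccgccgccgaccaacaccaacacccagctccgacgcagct
LAD1, chr1:201399325-201399574, minus strand: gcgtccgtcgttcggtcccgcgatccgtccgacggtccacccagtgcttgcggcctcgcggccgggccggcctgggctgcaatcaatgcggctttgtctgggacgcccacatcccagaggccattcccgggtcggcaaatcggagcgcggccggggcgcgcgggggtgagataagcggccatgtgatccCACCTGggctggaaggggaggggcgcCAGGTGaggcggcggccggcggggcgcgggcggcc

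The motif began 232 and 116 bases before the start in DSG2, 156 bases before it in DSC2, 178 and 85 in DSP, and 61 and 35 in LAD1. The DSC3 window holds 0 matches, as does that of a further annotated start of DSC2. RefSeq promoter windows of 300 bases, 250 before to 50 after a start, were found for 29 of the 47 symbols, with 43 windows in all. The motif was present in 15 of these 43 windows (34.9%) and in 20.6% of the 35116 windows of all genes. By call, it was in 7 of 13 windows of members called lower, which include those shown. It was in 6 of 20 windows of members that passed neither way and 0 of 3 of members called higher. These windows came from 9, 12 and 2 genes, some with several starts, so they are not independent. Counted by gene, the motif was in LAD1, OCLN, DSP, DSC2, DSG2 and TJP3 of the 9 called lower. It was in CLDN3, GJB2, TJP1, CLDN7, JUP and CRB3 of the 12 that passed neither way. CRB3 and 1 window of CLDN7, both not called, held 5 matches each, and CGN, called lower, held 0. A match is a run of letters, not a site, and the part of GC content was not tested.

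Regulators of junction genes, from a list of 18, had 6 lower and 2 higher of 14 tested (42.9% and 14.3%, beside 8.29% and 12.1% of all tested genes). ZEB1, ZEB2 and SNAI2 reached 1 CPM in 1 library alone, which fixed their direction. Of the 11 regulators at 1 CPM or more in both libraries, 5 were lower and 0 higher, beside 6.61% and 7.7% of all such genes. The repressor genes ZEB1 and ZEB2 had 13 and 5 parental counts and 232 and 198 resistant counts. SNAI2, a repressor of the SNAI family, had 201 and 10 counts, and SNAI1 had 35 and 43. GRHL1 and GRHL2, activators of epithelial junction genes, were at 35.2 and 114 CPM in parental and 10.3 and 54.1 CPM in resistant cells. OVOL1, OVOL2 and ESRP2 were the other lower ones, with log2 ratios of -1.70, -1.01 and -1.22. Further regulators of epithelial genes were tested and not called. ESRP1 (-0.64) and KLF5 (-0.46) were below 0, and ELF3 (0.08), CDX2 (0.10) and KLF4 (0.78) above it.

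The connexin genes were scarce. GJA1, the gene of connexin 43, had 0 and 56 counts, 18.5-fold higher when the count of 0 is taken as 3 counts. The counting interval of GJA1 begins at 14.6-fold. Its point in the plot of ratios depends on the 0.5 added to each count and its interval has no upper end. It reached 3.30 CPM, and a processed pseudogene, GJA1P1, could share its reads. GJB2, the gene of connexin 26, was at 16.6 and 12.0 CPM, with a log2 ratio of -0.47 (-0.74 to -0.20).

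Of 108 other junction gene symbols outside the list, 54 were tested, with a median log2 ratio of 0.04. Of these 54, 11 were lower (20.4%, beside 8.29% of all tested genes) and 8 higher (14.8%, beside 12.1%). Many of these calls passed the filter through 1 library alone, since among the 45 at 1 CPM or more in both libraries 6 were lower and 4 higher. Of all genes that met the same condition, 6.61% were lower and 7.7% higher. Beside the higher connexin GJA1, GJA5, the gene of connexin 40, had 1 and 93 counts (61.8-fold higher, 16.2 to 3682), while GJB5, a connexin of surface epithelia, had 41 and 6 counts and was 6.44-fold lower (2.91 to 19.9). The scaffold genes MAGI1 and DLG3 were 3.30-fold (2.88 to 3.82) and 2.49-fold (2.21 to 2.80) lower. LIMA1, an actin-binding partner of α-catenin, was 3.52-fold higher (3.31 to 3.75), and AMOTL1 and PARD3B were 3.36-fold (2.89 to 3.95) and 3.57-fold (2.54 to 5.23) higher. CTNND2, a neural relative of p120-catenin, had 3 and 25 counts (7.23-fold higher, 2.52 to 42.8), the cadherin gene CDH15 had 1 and 39 (26.1-fold, 6.55 to 1566), and FLG, the filaggrin gene, had 2 and 20 (8.13-fold, 2.41 to 87.5). None of these 3 passed with the deposited log2 values, where they differed by 0.112 to 0.844, and PARD3B did not either (0.674). The most abundant gene in each group of the list, CTNNB1, SCRIB, LMO7 and GJC1, had log2 ratios of 0.12, 0.07, -0.03 and -0.11.

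CDH7 and CDH19, further cadherin genes, had 172 and 54 parental counts and 0 resistant counts. They were 57.8-fold and 18.1-fold lower when the 0 is taken as 3 counts, and their counting intervals begin at 46.5-fold and 14.3-fold. CDH19 differed by -0.613 with the deposited log2 values. They are neighbours on chromosome 18. The nearest coding genes on either side, SERPINB8 and DSEL, had 253 and 294 counts and 1215 and 1402 counts.

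**Figure D4:**
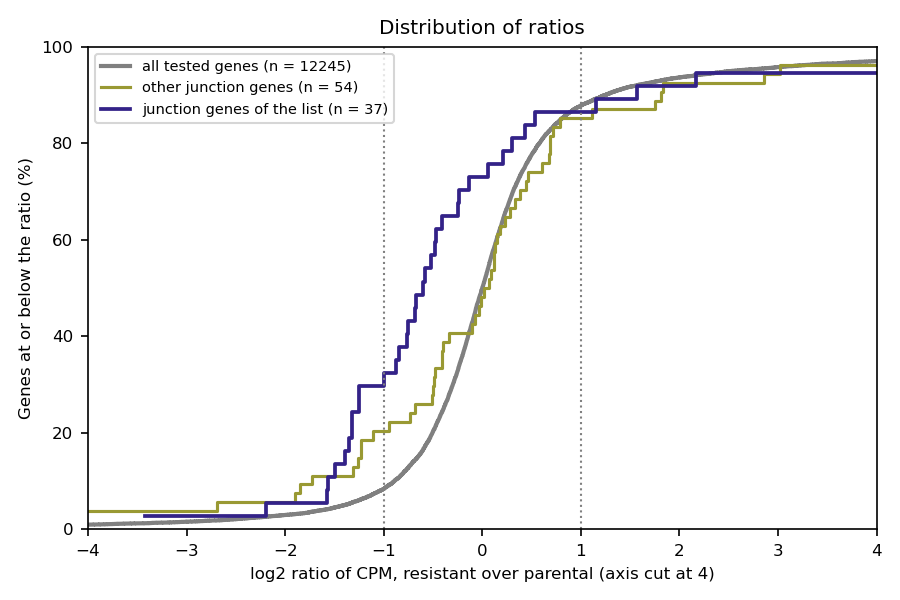
Cumulative share of genes (%) at or below a given log2 ratio, for the 37 tested junction genes of the list, the 54 tested other junction genes and all 12245 tested genes. The curve of the list lies left of the others over most of the range, with medians of -0.60, 0.04 and 0.00.

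The genes of the desmosomal cadherins form a cluster on chromosome 18. Of its 7 genes, DSC3, DSC2 and DSG2 were tested and lower, and DSC1, DSG1, DSG4 and DSG3 had 0 to 3 counts in each library. The next tested coding genes past DSG2 were B4GALT6, TRAPPC8, RNF125 and RNF138, with log2 ratios of -1.56, -0.79, -1.02 and -1.17. They are not junction genes, and 3 of these 4 were called lower, beside 8.29% of all tested genes. On the other side of the cluster stands CDH2, which was higher, and beyond it KCTD1, TAF4B and SS18 had ratios of -0.15, 0.07 and 0.10. Farther out lay another run below 0, from CABLES1 (-1.97) and SLC35D4 (-1.10), both called lower, to TTC39C (-0.17). Within 25 coding genes on either side, 11 of 18 tested genes before CDH2 were below 0, with 2 called lower and 1 higher. Of 17 after DSG2, B4GALT6 to RNF138 included, 11 were below 0, with 3 called lower and 3 higher. Past RNF138 the next tested genes were DTNA and MAPRE2, at 4.85 and 1.32. The run from DSC3 to RNF138 was delimited with the values in view. Copy number was not measured here, and its part in these ratios was not tested.

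**Figure D5:**
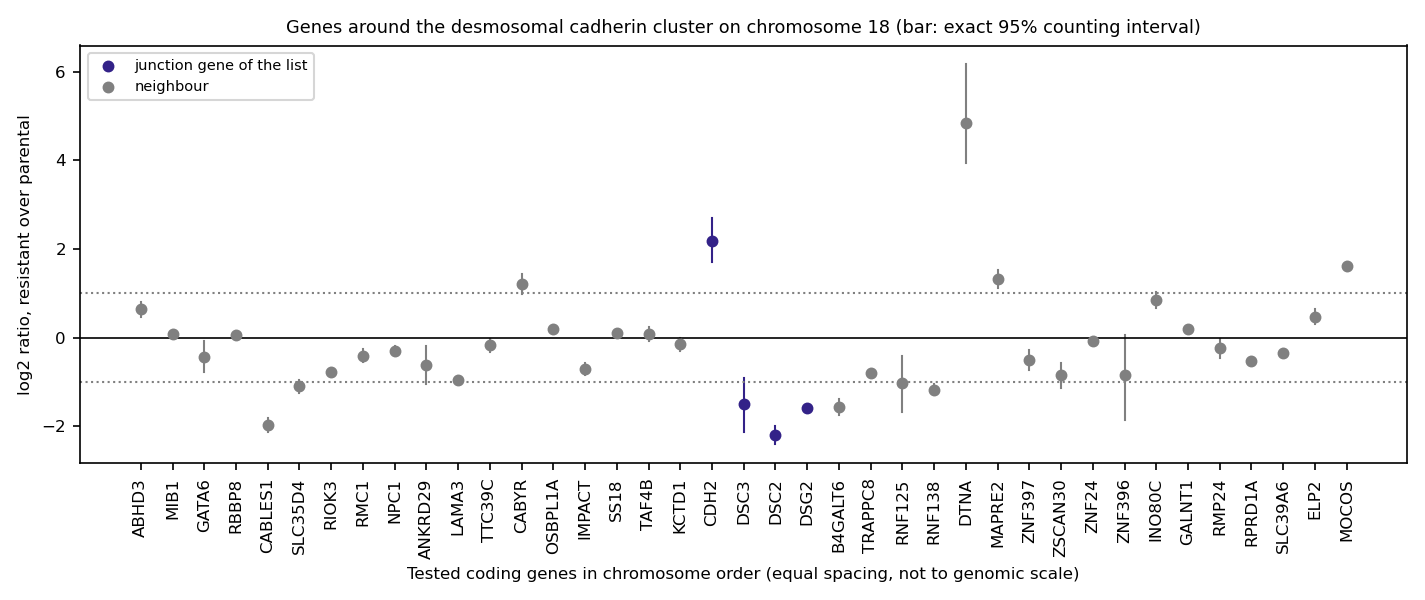
Log2 ratio of resistant over parental, with exact 95% counting intervals, for the tested coding genes among the 25 on either side of the desmosomal cadherin cluster, in chromosome order at equal spacing. The 7 consecutive tested genes from DSC3 to RNF138 lie between -2.19 and -0.79. Those from CABLES1 to TTC39C also lie below 0, between -1.97 and -0.17.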

How the data were processed

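A deposited table holds whole-number counts for each gene symbol and library, which the authors call raw data in its header. Per the submitters' processing notes, reads went through FastQC and STAR, with no version given, and GRCh38 and hg19 are both named without a role. Counting program, annotation and strand setting are not given in the sources used here. The authors also deposited 1 normalized log2 value per gene and library, with no method given. For 8345 genes with at least 200 counts in both libraries, the transcript length that such a value implies, read as log2 of 1 plus CPM per kilobase, was the same in both libraries within 0.05 (log2) of the median for 95.7%. For 92.0% of 8203 genes matched to GENCODE release 29 it lay within that gene's transcript lengths, allowing 5%. The log2 values served for per-length levels and as an alternative.

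Libraries were scaled with edgeR 4.0.16 (TMM, R 4.3.3), to effective sizes of 16834058 and 16974207. Intervals are conditional binomial, Clopper-Pearson (scipy 1.17.1), and were tested on simulated data. Without replicates no edgeR quasi-likelihood test was possible. PCR reads are not independent molecules. A count of 0 allows up to 3 counts (0.178 and 0.177 CPM). Alternatives were total counts, DESeq2 1.42.0 size factors, other filters, added count and size rules, and 1 chosen after seeing the data (1 CPM in both libraries). The members and lists were chosen with earlier results of these data known. All 43 members are accounted for. Of other junction genes, those are named whose interval bound nearest 0 is 1 or more, with CTNNB1 and the most abundant of each group. Some genes that this rule names are not reported here. Gene order came from RefSeq on GRCh38.p14. Of the 43 members, 15 share exon bases with another gene of GENCODE release 29, and 4 (CDH3, CLDN7, F11R and MARVELD3) more than 10% of them. Such counts are uncertain, as are those of CRB3, CTNNA1, GJA1 and OCLN, which have named pseudogenes.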

Additional observations from a re-analysis of the deposited data

How the results depend on the processing

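Each group had 1 library, so none could be left out. No paired analysis was possible because each group has 1 library. The count of 5 members higher became 3 with at least 5 CPM in 1 library, with a 4-fold rule and with 1 CPM in both libraries, the last chosen after seeing the data. The count of 12 lower became 2 with the 4-fold rule and was within 1.5 times in the rest. With 4-fold, members called lower (2) thus no longer outnumbered those called higher (3). Of all tested genes, 6.32% were higher and 2.93% lower with 4-fold, and 9.38% and 7.01% with at least 5 CPM. These shares were 7.56% and 4.83% with the deposited log2 values, 8.96% and 5.35% with the whole interval, and 7.7% and 6.61% with 1 CPM in both. The median of -0.60 was -0.495 with the deposited log2 values. Of the claudins, 2 were called, and 0 with at least 5 CPM, the deposited log2 values, the whole interval beyond 2-fold or 4-fold, and 1 with 1 CPM in both. Of OCLN, MARVELD2, MARVELD3 and F11R, 2 were called, and 1 with DESeq2 size factors, 2 added to each count, the deposited log2 values or the whole interval, and 0 with 4-fold. With 4-fold, EPCAM was not called (0 of 1), nor any tight junction scaffold or polarity gene (0), and the counts of 3 desmosomal cadherins and 3 plaque genes became 1 and 1. The connexin count of 1 became 0 with at least 5 CPM and with 1 CPM in both. Of other junction genes, the 8 higher became 4 with at least 5 CPM, 4-fold or 1 CPM in both, and 3 with the deposited log2 values. The 11 lower became 6 with at least 5 CPM, the whole interval or 1 CPM in both, 5 with the deposited log2 values and 3 with 4-fold. Stricter filters and size rules call fewer genes by construction. None of the 52 junction gene ratios recomputed changed sign under any alternative run, and those of SCRIB, LMO7 and GJC1 were not recomputed. Filters and call rules leave a ratio as it is, so they could not change a sign. Only the library sizes, the added count and the deposited log2 values could. With the deposited log2 values, 9 of 52 gave up their call, among them CLDN2 (-0.30), CLDN23 (0.79), OCLN (-0.79) and DSC3 (-0.44), at levels where the added 1 compresses differences. Low counts widen the intervals of CDH2, CDH5, CLDN2, CLDN3, CLDN23, DSC3 and GJA1, among others.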

Other observations

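CDH3 and CDH1 are neighbours on chromosome 16, and of the next coding genes ZFP90 (-0.64) was below 0, TANGO6 (0.48) above it, and HAS3, a hyaluronan synthase gene, was called lower (-1.80) at 160 and 45.9 CPM. CLDN3 and CLDN4 are neighbours on chromosome 7, with log2 ratios of -0.84 and -0.87. On the CLDN3 side ABHD11 was at 0.51 and STX1A, a syntaxin gene, was called lower at -1.88. On the CLDN4 side METTL27, with 22 and 13 counts, was at -0.75 and LIMK1, the next tested gene, at -0.06. MARVELD2 and OCLN are neighbours on chromosome 5, with ratios of -0.76 and -1.001, and the next genes before MARVELD2, RAD17 and TAF9, were at -0.07 and -0.28. After OCLN, GTF2H2C, with 14 and 25 counts, was at 0.80 and was not called. These neighbours were looked at after the values of the junction genes were known.

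Marker genes of other cell types were mostly near 0 in both libraries. Of 7 fibroblast markers, COL1A1 was at 20.7 and 14.3 CPM and the other 6 had 0 to 6 counts. Of the leukocyte markers, PTPRC had 21 and 7 counts, CD14 5 and 33, CD3E 0 in both, LYZ 4 and 2, and CD68, a lysosomal membrane gene that carcinoma cells can express, was at 86.0 and 31.6 CPM.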
